A study of Mus musculus with 16 samples.

Results

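The mitochondrial ribosomal protein genes were followed in brown adipose tissue (BAT) of mice with and without OPA1 in thermogenic adipocytes. The set held every protein-coding gene of GENCODE M21 whose symbol starts with *Mrpl* or *Mrps* followed by a digit, which gave 78 of the 51060 genes with a transcript in the files. Of these, 49 were *Mrpl* genes, named for the large subunit, and 29 were *Mrps* genes, named for the small subunit. All 78 passed the filter on low counts, which left 15632 genes in all, and the rule uses symbols and no measured value. They lay on 17 chromosomes, and their estimated counts in single mice ran from 45 to 4321.

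The study asked what the loss of OPA1, a dynamin-like GTPase that fuses mitochondrial inner membranes and shapes cristae, does to brown fat. BAT was taken from 16 mice aged 7 weeks on a C57Bl/6J background, fed chow at room temperature, with 4 WT females, 4 WT males, 4 OPA1 BKO females and 4 OPA1 BKO males (BKO below). OPA1 BKO mice were homozygous for floxed *Opa1* alleles and carried Cre under the *Ucp1* promoter, which is active in thermogenic adipocytes, so other cells of the tissue kept *Opa1*. WT mice were littermates that carried the same floxed alleles without Cre, so every mouse had the floxed gene and Cre itself was present in OPA1 BKO mice only, and an effect of Cre cannot be told apart from that of the deletion. Libraries were made from polyadenylated RNA with a stranded kit.

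Mitochondrial ribosomes make only the proteins encoded in the mitochondrial genome, which are core subunits of the respiratory complexes and of ATP synthase. Their 2 ribosomal RNAs come from the mitochondrial genome, while every protein of the particle is encoded in the nucleus, made in the cytosol and imported. Some of these proteins have a counterpart in bacterial ribosomes (named uL, bL, uS or bS in the unified nomenclature), and others are found in mitochondria alone (mL and mS). Brown fat is rich in mitochondria and uses its respiratory chain to make heat.

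Total estimated counts per mouse were between 13607283 and 23114534. Within the groups, the 24 pairs of mice had Spearman correlations across genes of 0.947 to 0.989, and 0 pairs were identical. *Opa1* (ENSMUSG00000038084.16, chr16:29579334-29654884) was at 152 to 210 CPM (read counts scaled to a common library total) in WT and at 17.9 to 36.9 CPM in BKO mice, a log2 fold change of -2.82 ± 0.15 (SE) with an adjusted p of 7.35e-10 by edgeR's quasi-likelihood test. Genes of the mitochondrial genome took 23.3 to 30.5% of the counts in WT mice and 4.44 to 9.02% in BKO mice. TMM scaling factors, which correct for such differences in composition, were 0.746 to 0.880 in WT and 1.18 to 1.27 in BKO mice. CPM values and fold changes below carry this scaling, and 2 alternatives without it are given beside the first result.

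The promoters of these genes were read from RefSeq (GRCm38.p6, 250 bases before to 50 after each start). Of the 78 members, 69 had an entry, with 75 promoters. Words of 3 factors known for regulating nuclear genes of mitochondria were searched on both strands: CCGGAAG for ETS factors such as GABPA, GCGCNTGCG for NRF1 and AAGATGGCG for YY1. The ETS word stood in 34.7% of the members' promoters, in 16.3% of those of tested protein-coding genes and in 8.86% of all 32851 promoters. The NRF1 word stood in 24.0% of the members' promoters, 12.2% of those of tested genes and 6.31% of all promoters. For YY1 the shares were 10.7%, 2.73% and 1.40%. At least 1 of the 3 words was present in 43 of the members' 75 promoters, or 57.3%, against 27.6% of the promoters of tested genes. The word TGATGNAAT, an element bound by ATF4 with a C/EBP partner, was in 0 of the 75 promoters, in 0.498% of those of tested genes and in 0.965% of all promoters. The 100 bases just before the RefSeq start are printed for the 4 genes of ribosomal proteins with the lowest fold changes. They are also printed for *Mrps22*, which rose, and for *Mrps18a*, which did not pass the test. RefSeq and GENCODE starts can differ: the stretch of *Mrpl18* lies inside the GENCODE span of the gene. Capitals mark an ETS, NRF1 or YY1 word on either strand, and a sequence without capitals has none in this stretch.
Mrpl34 (chr8:71464826-71464925, plus strand): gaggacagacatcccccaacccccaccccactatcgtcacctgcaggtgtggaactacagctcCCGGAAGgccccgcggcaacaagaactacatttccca
Mrpl18 (chr17:12916092-12916191, minus strand): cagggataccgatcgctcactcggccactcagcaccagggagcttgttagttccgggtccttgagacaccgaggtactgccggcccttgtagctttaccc
Mrps21 (chr3:95871515-95871614, minus strand): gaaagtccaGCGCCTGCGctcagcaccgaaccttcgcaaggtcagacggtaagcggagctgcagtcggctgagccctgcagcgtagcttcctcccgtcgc
Mrpl30 (chr1:37890377-37890476, plus strand): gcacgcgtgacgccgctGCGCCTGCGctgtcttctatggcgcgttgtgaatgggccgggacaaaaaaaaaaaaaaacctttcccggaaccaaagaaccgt
Mrps22 (chr9:98601680-98601779, minus strand): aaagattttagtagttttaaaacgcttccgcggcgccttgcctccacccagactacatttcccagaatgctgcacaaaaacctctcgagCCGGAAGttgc
Mrps18a (chr17:46110904-46111003, plus strand): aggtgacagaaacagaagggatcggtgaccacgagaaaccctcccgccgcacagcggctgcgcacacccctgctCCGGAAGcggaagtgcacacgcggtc
*Mrpl34* and *Mrps22*, which lay near opposite ends of the order by fold change, both carried an ETS word before the start, as did *Mrps18a*. The 26 members with an ETS word had a median log2 fold change of -0.28, and the 43 without one -0.29. For the NRF1 word the medians were -0.33 in 18 members with it and -0.27 in 51 without. A word match is a description of letters and not a bound site.

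Expression of most mitochondrial ribosomal protein genes was lower in BKO than in WT mice relative to other genes. Of the 78 members, 55 were lower, 1 was higher and 22 did not pass the test, while 20.2% of all 15632 genes tested were lower and 20.8% were higher. The median log2 fold change of the members was -0.27, a change of -17.3%, and that of all genes was 0.01. The changes were modest, from -0.88 to 0.22 on the log2 scale, with a median SE of 0.07, and 0 members changed by more than 1 log2 unit. The direction held relative to other genes, not on every scale: scaled by library size alone, the members' median was 0.28 against 0.57 for all genes, and on log2(TPM + 0.5) it was 0.66 against 0.87. Under these 2 settings, 69 and 62 of the 78 members lay below the median of all genes, compared with 69 under TMM.

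Every BKO mouse lay below every WT mouse for 20 members, compared with 4.89% of all genes tested, and above every WT mouse for 0 members, compared with 5.07%. The sum of the members' TPM, a measure per transcript length, was 5055 to 6419 in WT and 7684 to 9309 in BKO mice. As a share of the TPM of nuclear genes alone, the members took 0.835 to 0.982% in WT mice and 0.897 to 1.02% in BKO mice. The groups overlapped in that share, and the median mouse stood at 0.896% in WT and 0.951% in BKO mice, so the summed share was not lower although most members were lower gene by gene under TMM. In bulk tissue, fewer cells of a type and less RNA per cell cannot be told apart.

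**Figure D1:**
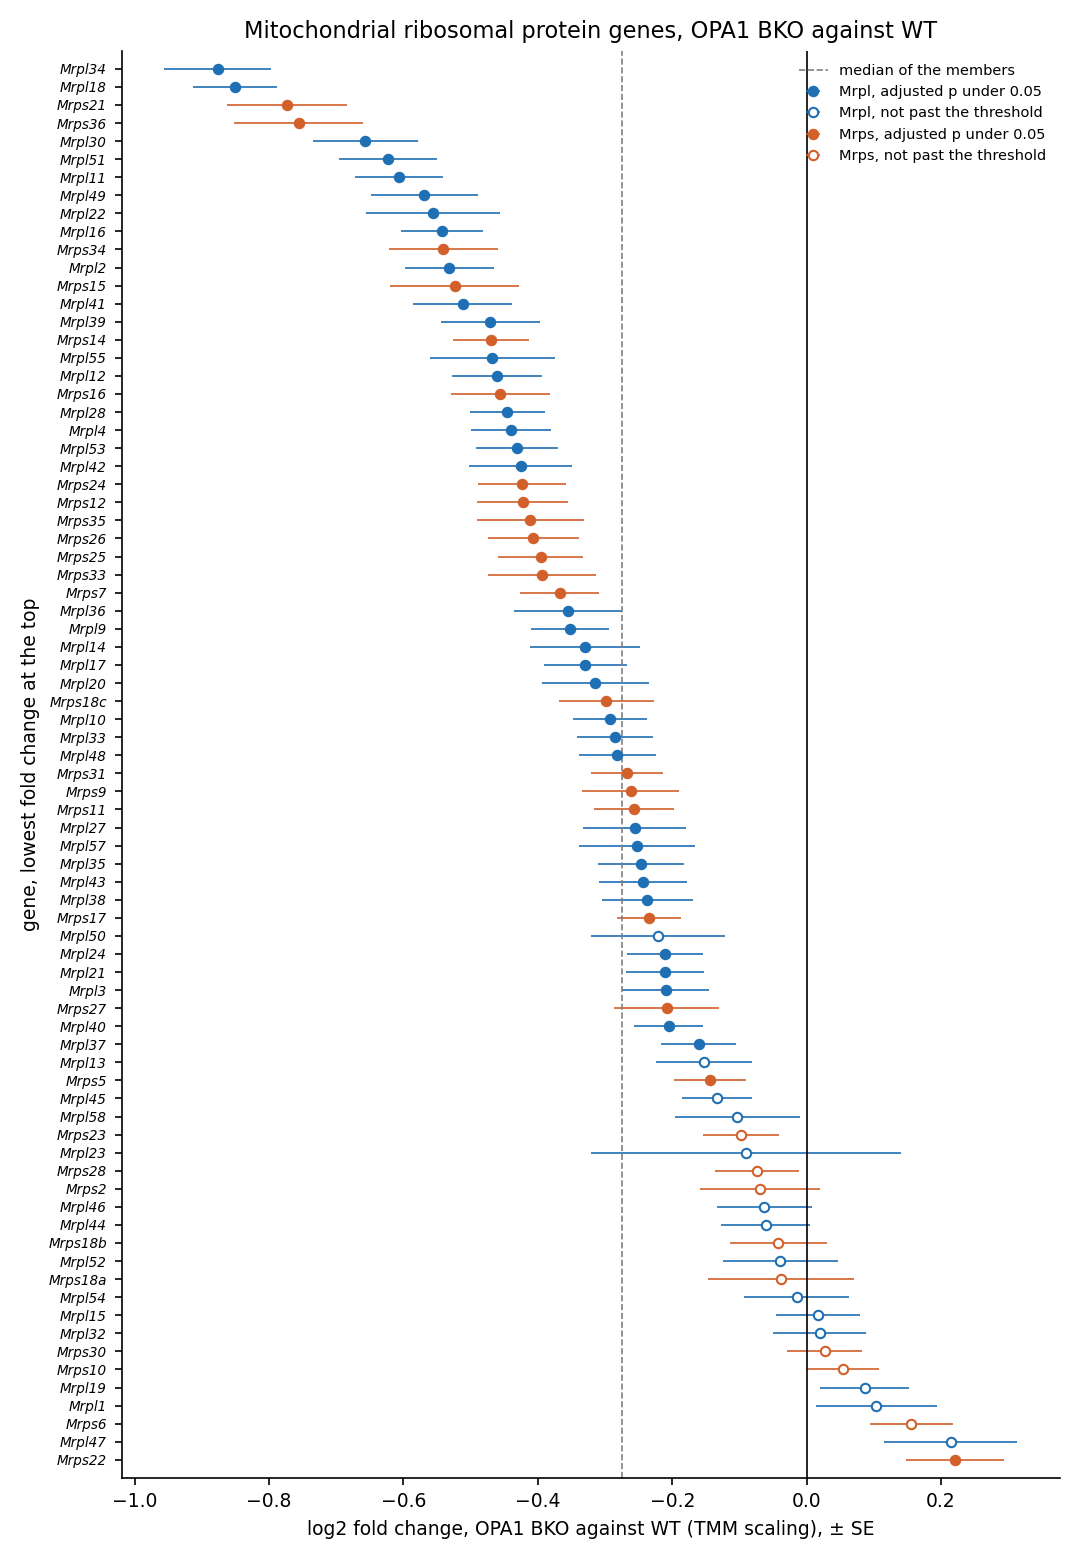
Log2 fold change of each of the 78 members in BKO against WT mice under TMM scaling (x axis), with bars of 1 SE, in order from the lowest. Blue points are Mrpl and orange points Mrps genes, filled where the adjusted p was under 0.05. Colours are mixed along the whole order, from -0.88 for Mrpl34 to 0.22 for Mrps22; on library size alone or TPM the whole order moved upward and most members turned positive.

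The counts and medians of the large and small subunits were close to each other. Of 49 *Mrpl* genes, 35 were lower and 0 higher, with a median log2 fold change of -0.28. Of 29 *Mrps* genes, 20 were lower and 1 higher, with a median of -0.27. The symbols do not always tell the place of a protein: *Mrps30* (mL65) and *Mrps18a* (mL66) code for proteins of the large subunit, and *Mrps36* codes for KGD4, a subunit of the alpha-ketoglutarate dehydrogenase complex. Assigned by place in the particle, 35 of 51 large subunit genes and 19 of 26 small subunit genes were lower, with medians of -0.26 and -0.28. The difference between the subunits' medians, large minus small, was -0.01 by symbol and 0.03 by place, so its sign rested on the assignment.

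In single mice, the median over the *Mrpl* genes of the log2 level relative to the WT mean ran from -0.15 to 0.25 in WT and from -0.40 to -0.16 in BKO mice, with no overlap. For the *Mrps* genes these medians ran from -0.18 to 0.25 in WT and from -0.41 to -0.13 in BKO mice. The highest BKO mouse, a male, lay above the lowest WT mouse, a female. Within each sex the genotypes did not overlap for either series. In females the *Mrps* medians ran from -0.18 to -0.002 in WT and from -0.41 to -0.25 in BKO mice. In males they ran from -0.03 to 0.25 in WT and from -0.29 to -0.13 in BKO mice. Within each of the 16 mice, the *Mrpl* and *Mrps* medians differed by -0.05 to 0.06. Both subunits were thus high in the same mice and low in the same mice. The 2 medians of a mouse share its library and scaling factor, and the part of this in their closeness was not tested.

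**Figure D2:**
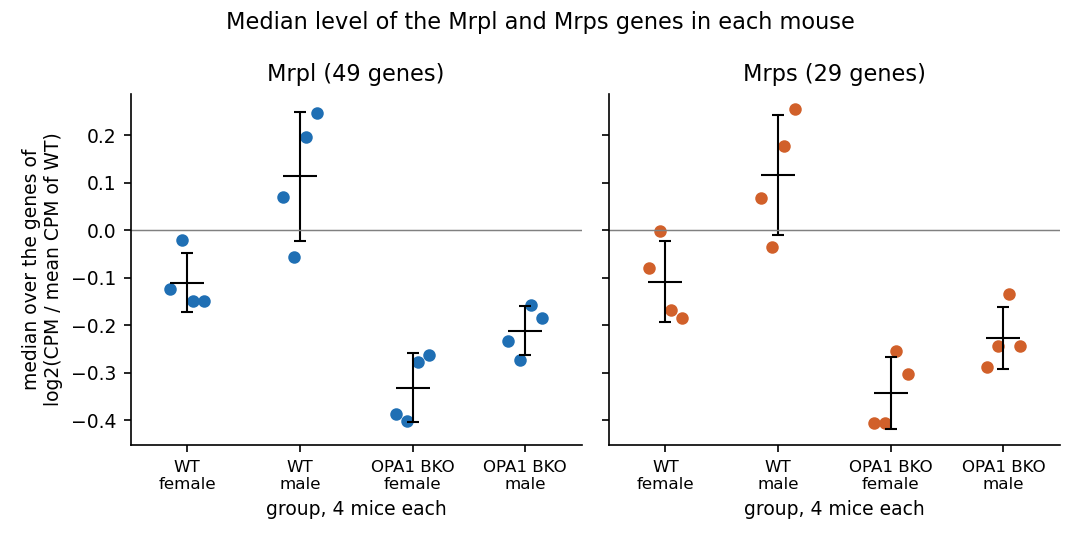
Median over the Mrpl genes (left) and the Mrps genes (right) of the log2 ratio of CPM to the mean CPM of WT mice (y axis) in each mouse, by group of 4 mice (x axis). Points are mice, and black bars give the mean and SD of a group. WT males are the highest group and BKO females the lowest in both panels, under TMM scaling.

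Genes whose products have a bacterial counterpart and genes of mitochondria-specific products were both mostly lower. Of 46 members with a bacterial counterpart, 35 were lower and 0 higher, with a median log2 fold change of -0.31. Of 31 members specific to mitochondria, 19 were lower and 1 higher, with a median of -0.24. Within the *Mrpl* genes the medians of these classes were -0.32 and -0.24, and within the *Mrps* genes -0.28 and -0.24.

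The lowest member was *Mrpl34* (ENSMUSG00000034880.7, chr8:71464959-71465747), which codes for bL34m of the large subunit. Its level was between 82.8 and 123 CPM in the 8 WT mice, with a median of 96.0, and between 45.8 and 67.1 CPM in the 8 BKO mice, with a median of 52.7. The genotypes did not overlap, and the log2 fold change was -0.88 ± 0.08 (SE), with an adjusted p of 4.78e-07 by edgeR's quasi-likelihood test. *Mrpl18* (ENSMUSG00000057388.9, chr17:12911349-12916345) codes for uL18m, whose bacterial counterpart binds 5S rRNA. It ranged from 77.9 to 105 CPM in WT mice, with a median of 88.0, and from 43.7 to 54.6 CPM in BKO mice, with a median of 48.9. Every BKO mouse was again below every WT mouse (log2 fold change -0.85 ± 0.06 SE, adjusted p of 4.59e-08 by the same edgeR test).

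*Mrps21* (ENSMUSG00000054312.6, chr3:95862634-95871519), which codes for bS21m, was the lowest gene of the small subunit. WT mice had 73.7 to 121 CPM, with a median of 86.8, and BKO mice 45.7 to 67.1 CPM, with a median of 51.6. Its log2 fold change was -0.77 ± 0.09 (SE), with an adjusted p of 6.18e-06 by edgeR. *Mrps36*, the gene of KGD4, had 109 to 178 CPM in WT and 68.5 to 90.3 CPM in BKO mice. It had the fourth lowest log2 fold change of the members (-0.76 ± 0.10 SE, adjusted p of 1.63e-05 by edgeR), although its protein is not part of the ribosome.

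In the large subunit, *Mrpl30* (uL30m) went from 152 to 223 CPM in WT mice to 105 to 138 CPM in BKO mice, a log2 fold change of -0.66 ± 0.08 (SE). *Mrpl51* (mL51) stood at 137 to 216 CPM in WT and at 99.5 to 132 CPM in BKO mice (-0.62 ± 0.07 SE). *Mrpl11*, whose product uL11m lies at the base of the stalk that receives elongation factors, was at 42.1 to 62.3 CPM and 29.8 to 38.2 CPM (-0.61 ± 0.07 SE). *Mrpl49* (mL49) was at 45.9 to 59.7 CPM in WT and at 30.3 to 40.5 CPM in BKO mice (-0.57 ± 0.08 SE). None of these 4 genes had overlapping genotypes, and their adjusted p by edgeR was between 2.99e-06 and 3.98e-05. With library size alone, these 4 and *Mrps36* stayed negative but lost their calls, with log2 fold changes of -0.02 to -0.20 and adjusted p of 0.0668 to 0.866. For *Mrpl51*, only 6.57% of the WT TPM was assigned to transcripts annotated as protein-coding, and the fold change over those alone was -0.40. In 16 of the 78 members such transcripts held the smaller part of the WT TPM.

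*Mrps22* (ENSMUSG00000032459.9, chr9:98588730-98601660), which codes for mS22, a mitochondria-specific protein of the small subunit, was the 1 member that rose. It ranged from 22.9 to 30.6 CPM in WT mice, with a median of 27.2, and from 29.2 to 38.1 CPM in BKO mice, with a median of 30.5. The genotypes overlapped, and the log2 fold change was 0.22 ± 0.07 (SE), with an adjusted p of 0.0238 by edgeR. Its call was lost within each sex and without 1 mouse in 5 of the 16 cases (S03, S05, S07, S13 or S16, adjusted p of 0.0505 to 0.0585 by edgeR).

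Among the genes past the threshold, the smallest decreases were those of *Mrps5*, *Mrpl37*, *Mrpl40*, *Mrps27*, *Mrpl3*, *Mrpl21* and *Mrpl24*, with log2 fold changes of -0.14 to -0.21. All 7 lost their calls when genes with low counts were kept in the table (adjusted p of 0.0849 to 0.351 by edgeR). Over protein-coding transcripts alone, *Mrpl3* had a log2 fold change of -0.008 and *Mrps5* one of 0.01. Such transcripts held only 17.6% and 17.8% of their WT TPM, and 20.4% and 24.0% in BKO mice. *Mrps5* (uS5m) was at 73.0 to 92.7 CPM in WT and at 62.5 to 79.0 CPM in BKO mice, with an adjusted p of 0.0423 by edgeR. *Mrps27* (mS27) was at 46.7 to 66.8 CPM and 43.2 to 53.5 CPM, with the same adjusted p of 0.0423. The call of *Mrps5* was lost without any 1 of 10 mice (S01, S02, S04, S05, S06, S08, S09, S12, S14 or S15, adjusted p of 0.0543 to 0.0893 by edgeR), and that of *Mrps27* without any 1 of S01 to S06, S08, S10, S14 or S15 (0.0525 to 0.0938). *Mrpl37* (mL37, adjusted p of 0.0286) lost its call without S01, S02, S04, S08 or S15 (0.0533 to 0.0605 by edgeR). *Mrpl40* (mL40) had an adjusted p of 0.0044 and *Mrpl24*, which codes for uL24m near the exit of the peptide tunnel, one of 0.0074 by the same test. Within a sex, *Mrpl40* had an adjusted p of 0.0501 in females and 0.0520 in males.

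**Figure D3:**
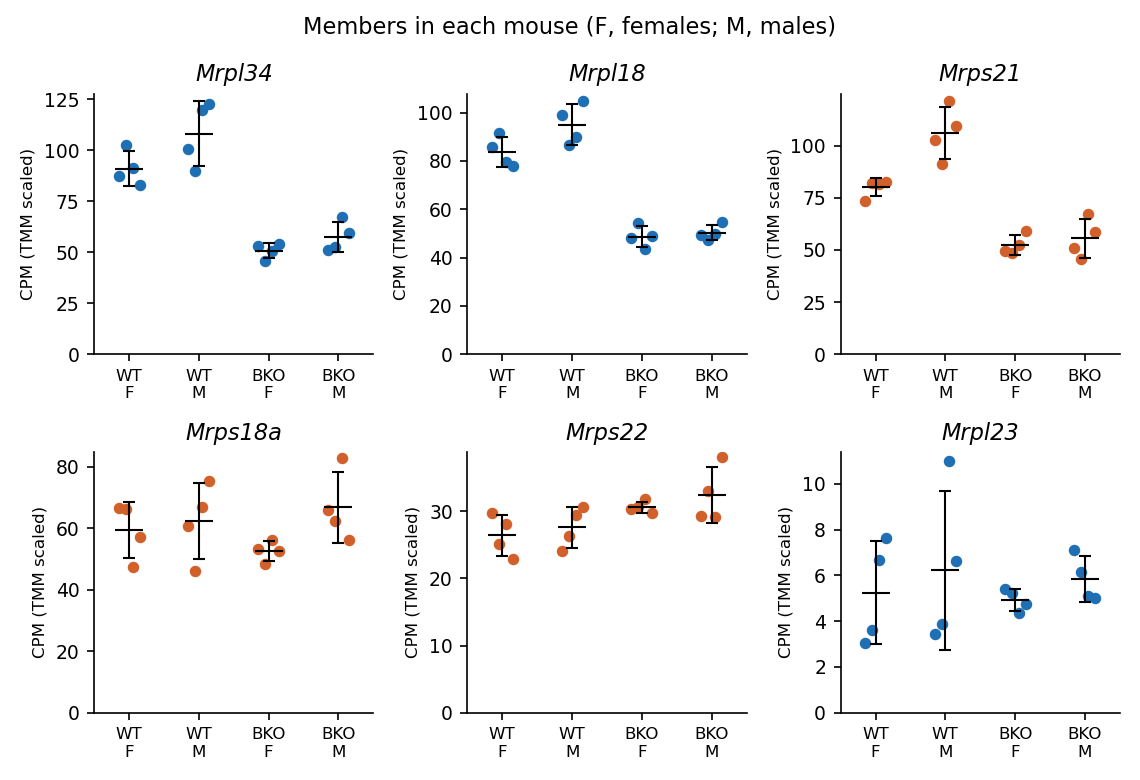
TMM-scaled CPM (y axis, from 0) of 6 members in each mouse, by genotype and sex (x axis, 4 mice per group), with black bars for the mean and SD. Mrpl34, Mrpl18 and Mrps21 separate WT from BKO mice, Mrps22 is slightly higher in BKO mice with overlap, and Mrps18a and Mrpl23 overlap throughout.

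The 22 members that did not pass the test had log2 fold changes between -0.22 and 0.21. The 3 paralogs of bacterial S18 did not move together by count of calls. *Mrps18c*, which codes for bS18m of the small subunit, was at 29.3 to 43.0 CPM in WT and at 25.1 to 32.3 CPM in BKO mice, a log2 fold change of -0.30 ± 0.07 (SE) with an adjusted p of 0.0032 by edgeR. *Mrps18b* (mS40) was at 52.1 to 82.5 CPM and 49.9 to 85.8 CPM, with a log2 fold change of -0.04 ± 0.07 (SE). *Mrps18a* (mL66) was at 46.1 to 75.5 CPM and 48.4 to 83.0 CPM, also with -0.04 but an SE of 0.11. The difference between the paralogs was not tested. *Mrps30* was at 40.4 to 57.7 CPM in WT and 43.1 to 52.5 CPM in BKO mice (log2 fold change 0.03 ± 0.06 SE).

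On the TPM scale, which allows genes to be compared, WT levels of the members ran from 8.57 to 322 TPM with a median of 61.4. *Mrpl42* (mL42) was the most abundant at 322 ± 31.9 TPM (SD, n = 8), next to *Mrpl30* at 310 ± 35.6 TPM and *Mrps21* at 267 ± 39.0 TPM. Their ranges over the 8 WT mice overlapped, at 272 to 378, 268 to 376 and 215 to 327 TPM. All 3 were lower in BKO mice under TMM, *Mrpl42* with a log2 fold change of -0.43 ± 0.08 (SE) and an adjusted p of 3.66e-04 by edgeR. The 3 least abundant members, *Mrpl23* (uL23m, at the exit of the peptide tunnel), *Mrpl1* (uL1m, of the L1 stalk) and *Mrps30*, were at 8.57 ± 4.70, 10.8 ± 1.18 and 12.5 ± 0.91 TPM (SD, n = 8), also with overlapping ranges. None of these passed the test. *Mrpl1* was at 24.3 to 37.3 CPM in WT and 25.8 to 36.6 CPM in BKO mice. *Mrpl23* had 3.06 to 10.98 CPM in WT and 4.34 to 7.13 CPM in BKO mice, and its SE of 0.23 was the largest of all members, so a change as small as the members' median was not detectable in it.

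Fold changes were lower in abundant members. Among the 20 members with the highest WT TPM, 19 were lower and their median log2 fold change was -0.45, and among the 20 with the lowest WT TPM 8 were lower and 1 was higher, with a median of -0.11. Of all genes tested within the same TPM limits, 47.4% and 25.02% were lower, with medians of -0.20 and -0.02, so a trend with level was present in genes at large too. Across the 78 members, Pearson's r between the log2 fold change and log2 WT TPM was -0.55 and Spearman's rho -0.50, which describes genes that share the same 16 libraries. Across all genes tested rho was -0.22. Members with short transcripts also had lower values. The 20 shortest had a median of -0.38 and the 20 longest -0.23, compared with -0.22 and 0.02 in all genes of those lengths. The parts of level and length in the members' change were not tested.

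**Figure D4:**
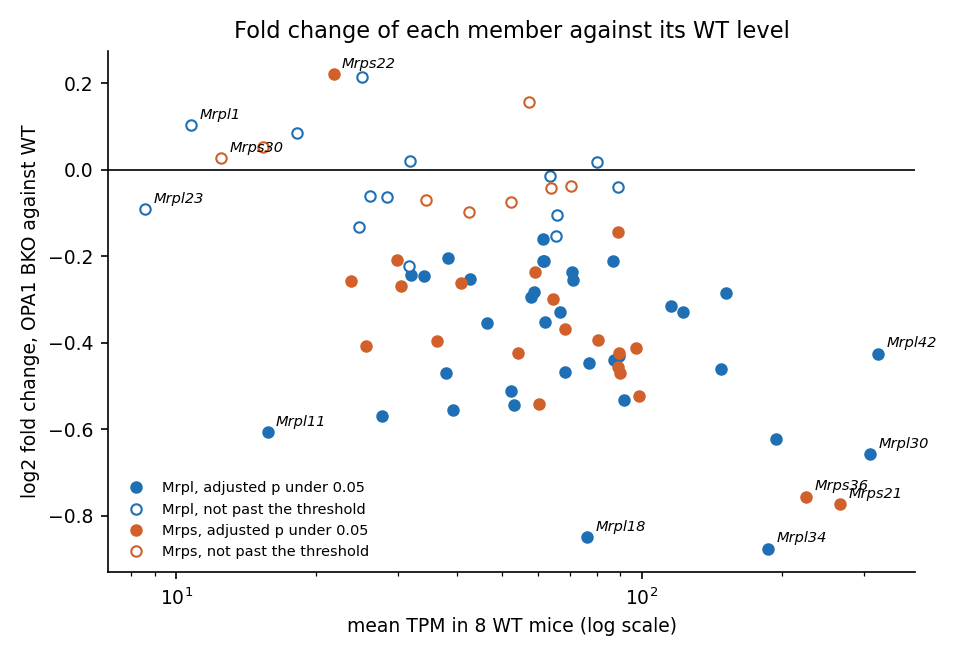
Log2 fold change of each member in BKO against WT mice under TMM scaling (y axis) against its mean TPM in 8 WT mice (x axis, log scale). Filled points had an adjusted p under 0.05. Mrpl42, Mrpl30 and Mrps21 lie at the right with negative values, and Mrpl23, Mrpl1 and Mrps30 lie at the left near 0.

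Both sexes showed the decrease. In females 36 members were lower and 0 higher (all genes 9.03% lower and 8.96% higher), with a median log2 fold change of -0.24. In males 45 were lower and 0 higher (all genes 16.9% and 17.9%), with a median of -0.34. By count, 31 members were lower in both sexes, 5 only passed the test in females, 14 only in males and 28 in neither. The difference between the sexes itself was past the threshold for 0 members by edgeR's test of the interaction, compared with 0.115% of all genes, and 7 of 78 had an unadjusted p under 0.05, against 13.1% of all genes. The lowest adjusted p was 0.127, for *Mrps15*, with a log2 fold change of -0.26 in females and -0.78 in males. *Mrps15* was picked out after its values were seen.

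Few members differed by sex within a genotype. In WT mice, males were nominally above females for 73 of the 78 members, with a median log2 difference of 0.24 against -0.01 for all genes. However, 0 of these differences passed the test, compared with 0.23% of all genes in either direction. A set of 93 genes was taken by symbols that start with *Rpl* or *Rps* and a digit, as for cytosolic ribosomal proteins. This rule reads symbols alone, so it can take in other genes and miss some of that ribosome. The set had a median of 0.32 in the same comparison, with 82 of 93 above 0 and 0 past the threshold. In BKO mice, the members' median was 0.14, that of the *Rpl* and *Rps* set was 0.32, and 3 members were higher in males, compared with 2.57% of all genes. These were *Mrps18b* (0.52 ± 0.10 SE), *Mrpl38* (0.46 ± 0.09 SE) and *Mrpl20* (0.46 ± 0.11 SE), the last 2 named after their values were seen.

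Of the other 5 proteins of the mitochondrial ribosome, which have names of their own, 4 genes were lower and 0 higher, with a median log2 fold change of -0.29. These were *Chchd1* (-0.42 ± 0.06 SE), *Dap3* (-0.32 ± 0.05 SE), *Gadd45gip1* (-0.29 ± 0.11 SE) and *Aurkaip1* (-0.25 ± 0.07 SE), while *Ptcd3* had a value of -0.14 ± 0.06 (SE) and did not pass. Of 25 factors that build or modify the ribosome, 6 were lower and 7 higher, with a median of -0.12, which is near the shares of 20.2% and 20.8% among all genes. The lowest was *Rbfa*, which matures the small subunit rRNA (-0.60 ± 0.07 SE). The highest were *Mettl15*, an rRNA methyltransferase (0.53 ± 0.07 SE), and *Mrm3*, another rRNA methyltransferase (0.36 ± 0.14 SE), followed by *Tfb1m*, which dimethylates the small subunit rRNA (0.35 ± 0.08 SE).

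Of 16 mitochondrial translation factors tested, 7 were lower and 4 higher (all genes 20.2% and 20.8%), with a median of -0.16. The elongation factor *Tufm* (-0.52 ± 0.06 SE), the RNA-binding protein *Slirp* (-0.47 ± 0.09 SE) and the insertase *Oxa1l* (-0.41 ± 0.07 SE) were lower. *Lrpprc*, the partner of SLIRP in stabilising mitochondrial mRNAs, was higher (0.33 ± 0.07 SE), as was the recycling factor *Mrrf* (0.24 ± 0.06 SE). The templates fell much further. All 13 mRNAs of the mitochondrial genome were lower, at -2.54 in the median on the log2 scale. The 2 mitochondrial rRNAs were lower by the same test, *mt-Rnr1* with -0.72 ± 0.15 (SE) and *mt-Rnr2* with -0.80 ± 0.20 (SE), although selection for polyadenylated RNA is not made to measure them.

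Among 12 regulators of mitochondrial gene expression, 4 were higher and 1 lower, compared with 20.8% and 20.2% of all genes. The other 7, *Tfam*, *Polrmt*, *Yy1*, *Esrra*, *Gabpb1*, *Ppargc1a* and *Pprc1*, did not pass the test. *Nrf1* rose (log2 fold change 1.10 ± 0.08 SE), as did the ETS factor *Gabpa* (0.74 ± 0.09 SE), *Ppargc1b* (0.47 ± 0.16 SE) and *Myc* (2.64 ± 0.36 SE), while *Tfb2m*, a transcription factor of the mitochondrial genome, fell (-0.41 ± 0.07 SE). The *Rpl* and *Rps* set, taken by symbol alone, did not share the pattern by count: of its 93 genes, 12 were lower and 11 higher, with a median of -0.002. It can hold genes of other proteins, so these counts do not describe the cytosolic ribosome alone. These lists were written with earlier results of the same mice known, and the counts are descriptions.

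Many members share a start region with a gene on the other strand. By GENCODE starts, a divergent protein-coding gene began within 1000 bases of 33 of the 78 members, or 42.3%. The share was 15.3% among 13706 tested protein-coding genes. *Mrps11* and *Mrpl46* are each other's partner and both members. Of the 30 other partners tested, 9 were lower and 5 higher (all genes 20.2% and 20.8%), and their median log2 fold change was -0.07. Of the 33 members with a partner 24 were lower, and of the 45 without one 31, with medians of -0.26 and -0.31. Among the 8 lowest members, *Mrpl18* starts 644 bases from *Tcp1*, *Mrpl30* 66 bases from *Mitd1*, *Mrpl51* 100 bases from *Ncapd2* and *Mrpl49* 59 bases from *Fau*. These 4 partners had log2 fold changes of -0.09 ± 0.05, 0.08 ± 0.12, -0.18 ± 0.07 and -0.16 ± 0.09 (SE), and none passed the test. Whether a member and its partner differed was not tested.

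Markers of several cell types moved with genotype. The summed level of 10 adipocyte markers, brown and general, was 14942 to 22373 CPM in WT and 8878 to 14507 CPM in BKO mice. Of the 10 genes, 4 were lower and 2 higher (all genes 20.2% and 20.8%). *Fabp4* was the largest part of the sum, with a mean of 8470.5 CPM in WT and 4830.7 CPM in BKO mice. *Adipoq*, *Cidea* and *Cox7a1* were also lower, *Elovl3* and *Pparg* were higher, and *Ucp1*, *Prdm16*, *Dio2* and *Plin1* did not pass the test. *Ucp1* was present in all groups (mean of 4758 CPM in WT and 3436 CPM in BKO mice). The summed level of 8 macrophage markers was 84.4 to 121 CPM in WT and 117 to 478 CPM in BKO mice, with 7 of 8 higher. Of 7 preadipocyte and fibroblast markers 5 were higher (410 to 671 and 468 to 994 CPM), of 6 endothelial markers 3 were lower (762 to 1073 and 636 to 870 CPM), and of 8 lymphocyte markers 3 were lower (6.09 to 12.2 and 3.77 to 7.53 CPM). Each marker gene of these lists had a mean level above 0 in both genotypes. Their part in the members' change was not tested. Skeletal muscle markers varied from 3.26 to 15541 CPM within BKO mice and from 19.8 to 6357 CPM within WT mice. Between genotypes 0 of 8 passed the test. All 8 were nominally higher in BKO mice, with log2 fold changes of 1.25 to 1.62 and SEs of 1.08 to 1.23. Without the 2 mice highest in them, S04 and S06, the members' median log2 fold change was -0.26.

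**Figure D5:**
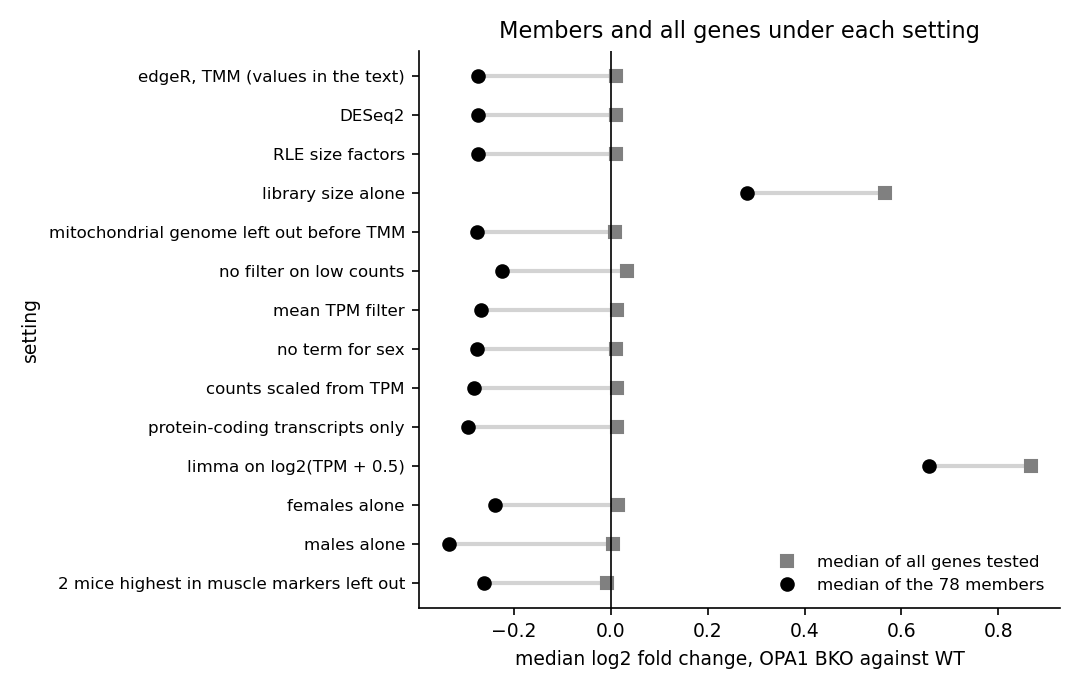
Median log2 fold change in BKO against WT mice (x axis) of the 78 members (black points) and of all genes tested (grey squares) under each setting (y axis). The members lie below all genes in every setting drawn, while both medians are above 0 with library size alone and with limma on log2(TPM + 0.5).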

How the data were processed

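RNA was measured in BAT of 16 mice, 4 per group of genotype and sex, and mice were assigned to groups by their labels. The authors deposited Kallisto output for each mouse (0.45.0, mm10, per the submitters' processing notes), with an estimated count and a TPM for each transcript. Per the file headers, these estimated counts are unnormalized, can be fractions and divide reads that fit several transcripts. The deposited TPM is scaled by effective length to 1 total per mouse, so it moves with the share of the mitochondrial genome. The transcript release was not given in the sources used here. Of 135308 transcripts, 133284 were joined by identifier, version removed, to GENCODE M21 genes on GRCm38, and the other 2024 held 0.483 to 0.730% of the counts and were not used.

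Sums of estimated counts per gene were rounded and filtered by filterByExpr (minimum count 10, minimum total 15). edgeR 4.0.16 in R 4.3.3 tested 15632 genes by its quasi-likelihood test with TMM, terms for genotype and sex and a prior count of 0.125. The Benjamini-Hochberg adjustment covered all genes tested, with a call under 0.05. Effects within a sex and the interaction came from a model with 1 mean per group. SE is the log2 fold change divided by the root of F. On simulated counts, 90% of genes with a log2 change of 1 and 15% of those with 0.4 were recovered among 14883 genes, with 3.67% false calls. These counts followed the WT profile in both genotypes, with changes in a small share of genes. They held no sex effect and no shift of the mitochondrial genome, so these shares do not measure error rates of the real fit. P-values set an effect against the variation between mice, which includes counting error. Read counts alone would not give that variation, since copied reads are not independent molecules.

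Genes named with values are *Opa1*, the 8 lowest and 8 highest called members by fold change, members called in the rarer direction, the 3 most and 3 least abundant by WT TPM, the *Mrps18* paralogs, *Mrps30* and *Mrps36*, and genes of the written lists. Others are said to be named after their values were seen. The members and lists were chosen with earlier results of these data known. No test over a list was made. Of 17 translation factors listed, 1 symbol was not matched. Alternatives were DESeq2 1.42.0, RLE factors, library size alone, the mitochondrial genome left out before scaling, no filter or a mean TPM of at least 1, a model without sex, counts scaled from TPM, protein-coding transcripts alone, limma 3.58.1 on log2(TPM + 0.5), each sex alone, subunits by place and each mouse left out. Leaving out the 2 mice highest in muscle markers was chosen after seeing the data.

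By shared words of 31 bases, 29 members had at least 10% of their transcript sequence in common with another gene, where Kallisto could split reads. The other 49 had 33 lower and a median log2 fold change of -0.26.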

Additional observations from a re-analysis of the deposited data

Results flagged for a closer look

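In 4 of 112 sets of 4 mice, 1 mouse stood apart from the other 3 by its gap relative to the whole range, and chance alone marks about 1 set in 20. *Mrps21* was at 73.7 CPM in 1 WT female (S01), the lowest of its group. *Mrpl49* was at 45.9 CPM in 1 WT male (S07). *Mrpl1* was lowest at 24.3 CPM in 1 WT female (S13) and at 25.8 CPM in 1 OPA1 BKO male (S12). Without these mice in turn, *Mrps21* had log2 fold changes within -0.81 to -0.72, *Mrpl49* within -0.61 to -0.54 and *Mrpl1* within 0.05 to 0.16, which are the ranges over the loss of any 1 mouse.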

How the results depend on the processing

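The members' median log2 fold change, -0.27, stayed negative under every alternative run except library size alone (0.28, with 0.27 for *Mrpl* and 0.29 for *Mrps*) and limma on log2(TPM + 0.5) (0.66, with 0.65 and 0.68), where all genes rose to 0.57 and 0.87. The members' median minus that of all genes was between -0.34 and -0.21 in every setting. With library size alone 3 members were lower (2 *Mrpl*, 1 *Mrps*) and 48 higher, among 373 lower and 10869 higher genes in the whole table, and with limma 0 were lower (0 and 0) and 76 higher, among 103 and 11871. Leaving the mitochondrial genome out before TMM gave a median of -0.28. In females alone 36 members were lower (23 *Mrpl*, 13 *Mrps*). With no filter on low counts 44 were lower (26 and 18), and the 7 smallest decreases named in the report were no longer called. The count of higher members, 1, was 2 with DESeq2, with no filter, with the TPM filter and with counts scaled from TPM, and 0 in females and in males alone. Leaving out 1 mouse at a time gave 0 to 2 higher members (0 without S03, S05, S07 or S13, 2 without S04 or S11) and 51 to 56 lower ones. The difference between the *Mrpl* and *Mrps* medians was 0.0214 with protein-coding transcripts alone, 0.0271 by place and -0.0257 to 0.0220 without single mice. With library size alone these values turned positive: *Mrpl24* and *Mrpl21* 0.34, *Mrpl3*, *Mrps27* and *Mrpl40* 0.35, *Mrpl37* 0.39, *Mrps5* 0.41, *Mrpl42* 0.13, *Mrpl23* 0.46, *Mrps18a* and *Mrps18b* 0.52 and *Mrps18c* 0.26. Calls were lost there for *Mrps36* (-0.20, adjusted p of 0.0668), *Mrpl30* (-0.10, 0.232), *Mrpl51* (-0.07, 0.425), *Mrpl11* (-0.05, 0.534) and *Mrpl49* (-0.02, 0.866). With limma on TPM they were *Mrpl34* 0.0897, *Mrpl18* 0.10, *Mrps21* and *Mrps36* 0.19, *Mrpl30* and *Mrpl51* 0.26, *Mrpl11* 0.34, *Mrpl49* 0.38, *Mrpl24* and *Mrps27* 0.74, *Mrpl21* 0.75, *Mrpl3* and *Mrps18c* 0.68, *Mrpl40* 0.74, *Mrpl37* and *Mrps5* 0.80, *Mrpl42* 0.53, *Mrpl23* 0.82, *Mrps18a* 0.94 and *Mrps18b* 0.91. Among the genes named by rule, members near 0 changed sign in further settings: with no filter *Mrps18a* 0.00978 and *Mrps18b* 0.00611, in males *Mrps18a* 0.10 and *Mrps18b* 0.0575, with protein-coding transcripts *Mrps5* 0.0105, and without single mice *Mrps18a* -0.12 to 0.00018, *Mrps30* -0.0043 to 0.0497 and *Mrpl23* -0.18 to 0.0916. Over protein-coding transcripts alone, *Mrps24*, called lower at -0.42, was at 0.04, and *Mrpl57*, called lower at -0.25, was at -0.09. Such transcripts held 7.24% and 5.61% of their WT TPM, and these 2 genes were named after their values were seen. *Opa1* kept its call in all 29 alternatives, with -2.90 to -2.76 without single mice. The cause of these shifts was not tested. No paired analysis was possible because the replicate numbers of the labels are not shared between groups.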
